A study of Mus musculus with 3 samples.

Results

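The genes described here encode the subunits of GABA-A receptors, of ionotropic glutamate receptors and of metabotropic glutamate receptors. Members were chosen by symbol alone, as genes whose symbol is Gabr, Gria, Grik, Grid, Grin or Grm with its subunit letter or number. The count table listed 42 of them among 20937 genes, 17 for GABA-A and 25 for glutamate receptors. GENCODE M21 has 45 genes that meet the rule, and Gabra6, Gabrr3 and Grin2a have no row in the count table, so they could not be analysed. Stim1 encodes a calcium sensor of the endoplasmic reticulum, and the study asked how its deletion changes the cells that form enamel. RNA was taken from the whole enamel organ of incisors of male mice at 4 weeks of age and sequenced as 3 libraries, 1 per genotype. Stim1 cKO was Stim1 fl/fl Cre+, Stim1 HT was Stim1 fl/wt Cre+, and Stim1 Ctrl was Stim1 fl/fl Cre-. Cre was driven by the amelogenin promoter (AmelX-iCre), so deletion was directed to ameloblasts, while the RNA also held the other cells of the dissected tissue, although the samples carry ameloblasts as their cell type. Both controls keep at least 1 allele that Cre did not delete, and Stim1 HT carries Cre as Stim1 cKO does.

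GABA-A receptors are pentameric chloride channels, usually built from alpha, beta and gamma subunits, with rho subunits in retinal bipolar cells. AMPA, kainate and NMDA receptors are tetrameric cation channels opened by glutamate, the delta subunits are their relatives, and the mGlu receptors act through G proteins. Most of these genes are known for their expression in neurons and glia, whereas teeth are supplied by axons whose cell bodies, and so most of whose mRNA, lie in distant ganglia.

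The libraries held 21496136 counts (Stim1 cKO), 20216507 counts (Stim1 HT) and 28265960 counts (Stim1 Ctrl), and every run of 3 values below keeps that order. At this depth 3 counts, taken as the limit of detection, correspond to 0.124, 0.152 and 0.117 CPM, the counts scaled to a common library size. With 1 library per genotype no difference below has a replicate check. Levels are CPM scaled by the trimmed mean of M-values (TMM), and ratios carry exact 95% intervals from the binomial split of the counts, which cover counting error only. In a whole tissue, fewer cells of a type and less RNA per cell cannot be told apart.

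Stim1 itself had 1763, 2536 and 4797 counts, or 72.8, 129 and 186 CPM. The order followed the labels, at 0.566 of Stim1 HT (0.532 to 0.601) and 0.391 of Stim1 Ctrl (0.370 to 0.413), and Stim1 mRNA was still present in the Stim1 cKO tissue. Its relative Stim2 had 49.3, 69.5 and 73.3 CPM. Amelx, the gene for the main enamel matrix protein and the most abundant of 8 ameloblast markers, stood at 2065, 20016 and 14088 CPM. All 8 ameloblast markers were above 3 counts in every library.

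The receptor genes together took 22180, 2663 and 3759 counts. As a share of each library this was 0.103% (Wilson 95% interval 0.102 to 0.105), 0.0132% (0.0127 to 0.0137) and 0.0133% (0.0129 to 0.0137). Both controls therefore lay within each other's counting interval, and the Stim1 cKO library lay far outside it. Of the 42 genes, 32 were over 2-fold above both controls in Stim1 cKO, where 19.2% of all 20937 listed genes were. None was over 2-fold lower than both controls, where 8.21% of all listed genes were. The median difference of log2(CPM + 1) between Stim1 cKO and the mean of both controls was 1.64 over the 42 genes, beside 0.014 over all listed genes.

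Some members left the pattern. Only 4 genes lay between both controls, and no member lay below both. Those 4 were Gabra3, Gabrb2, Gabrr2 and Grin3b, so their direction depended on which control was used. In total 7 genes, Gabrr2 and Gabra3 among them, passed 2-fold upward against 1 control only. With the controls grouped, Gabrr2 and Grin3b alone had a negative log2 difference in edgeR, -0.22 and -0.046, and both turned positive when scaled by library size only, which moves the median of all genes by 0.16, and Grin3b also with upper-quartile factors. The controls themselves differed by over 2-fold for 10 of the 42 genes.

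**Figure D1:**
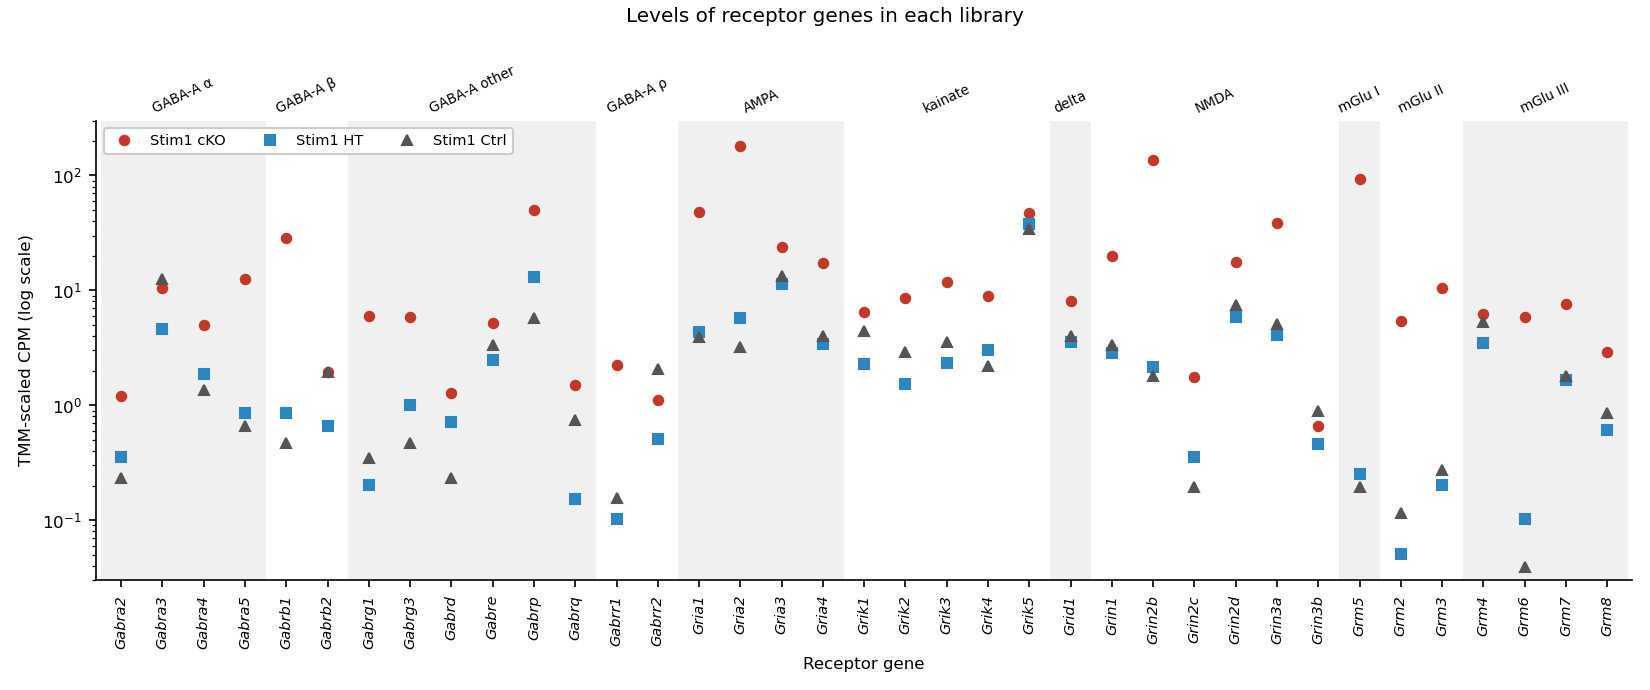
TMM-scaled CPM (log scale) of receptor genes in Stim1 cKO (circles), Stim1 HT (squares) and Stim1 Ctrl (triangles), 1 library each, grouped by receptor class. The GABA-A class marked "other" holds gamma, delta, epsilon, pi and theta subunits, and of all 42 genes 20 reached 10 CPM in Stim1 cKO against 3 in each control.

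Across all genes, edgeR's quasi-likelihood test of Stim1 cKO against the grouped controls called 2 members, Grm5 and Grin2b, at an adjusted p under 0.01 and a fold change over 2. All 42 members entered the test, in which 0.0749% of 18702 genes were called higher. At an adjusted p under 0.05 it was 19 members, against 6.8% of the genes tested. DESeq2 on the same counts called 18 members, all higher, against 6.3% of 17283 genes. With a lone Stim1 cKO library, the only spread either tool could use was that between the control genotypes, which left 1 residual degree of freedom.

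Among the metabotropic receptors, Grm5 encodes mGlu5, a receptor of group I that is coupled to phospholipase C and abundant in forebrain. It had 2271, 5 and 5 counts. The ratio was 370 to Stim1 HT (158 to 1139) and 483 to Stim1 Ctrl (207 to 1488), the highest of all members against each control. Grm5 rose by 8.70 on edgeR's log2 scale, at a Benjamini-Hochberg adjusted p of 0.00351 (2.33e-40 to 0.00926 over alternative tests, scalings and filters). DESeq2 gave 8.70 with an SE of 0.627.

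Group II held Grm2 and Grm3, whose products lower cyclic AMP and are found on nerve terminals and, for mGlu3, on glia. Grm2 had 132, 1 and 3 counts. Grm3 had 256, 4 and 7 counts in the same order. Both were thus at or near the limit of detection in the controls, and DESeq2 called both. The ratio of Grm2 was 107 to Stim1 HT (18.9 to 4274) and 46.8 to Stim1 Ctrl (15.7 to 230), so its size is poorly bounded. Group III was mixed. Grm6, the glutamate receptor of ON bipolar cells of the retina, had 143, 2 and 1 counts. Grm4, by contrast, had 152, 69 and 136 counts, a ratio of 1.79 to Stim1 HT (1.34 to 2.42) and 1.19 to Stim1 Ctrl (0.936 to 1.51). Grm4 made up 52.7% of all Grm counts of Stim1 HT (44.2 to 61.0) and 61.0% of those of Stim1 Ctrl (54.4 to 67.1), and 4.23% in Stim1 cKO (3.62 to 4.93). Grm5 held the matching place in Stim1 cKO, at 63.1% of Grm counts (61.5 to 64.7), against 3.82% (1.64 to 8.62) and 2.24% (0.961 to 5.14) in the controls.

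The NMDA receptor is built on the obligatory GluN1 subunit, encoded by Grin1, with GluN2 subunits that set its kinetics and GluN3 subunits that lower its calcium flow. Grin2b, for the GluN2B subunit of forebrain, had 3299, 42 and 46 counts. Its ratio was 63.9 to Stim1 HT (47.2 to 88.9) and 76.2 to Stim1 Ctrl (57.0 to 104). Grin2b rose by 6.12 on edgeR's log2 scale, at an adjusted p of 0.00537 (2.85e-46 to 0.0147 over the alternatives), and 6.10 with an SE of 0.410 in DESeq2. Grin2b was no longer called with scaling by library size only (6.38, at an adjusted p of 0.0147) or when only genes averaging 50 counts or more were kept (6.23, at 0.0137), although its fold change was no smaller in either. Grin1 had 477, 56 and 86 counts, and Grin3a 938, 80 and 130. Each was called by DESeq2 and not by edgeR, with ratios of 6.93 and 5.90 for Grin1 and of 9.54 and 7.67 for Grin3a to Stim1 HT and Stim1 Ctrl.

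The other NMDA subunits had fewer counts. Grin2c, for the GluN2C subunit of cerebellar granule cells, had 43, 7 and 5 counts, a ratio of 4.999 to Stim1 HT (2.23 to 13.2) and 9.14 to Stim1 Ctrl (3.63 to 29.6), and was called by neither tool. Grin3b had 16, 9 and 23 counts, a ratio of 1.45 to Stim1 HT (0.602 to 3.71) and 0.740 to Stim1 Ctrl (0.365 to 1.46), so no difference was detectable at this depth. Within the GluN2 subunits counted, Grin2b held 87.6% of counts (86.5 to 88.6), 25.5% (19.4 to 32.6) and 18.9% (14.4 to 24.2). Grin2d, for a subunit of early development and of interneurons, held 11.3% (10.3 to 12.3), 70.3% (62.9 to 76.7) and 79.1% (73.6 to 83.7). Among the GluN2 genes counted, the leading gene thus differed between Stim1 cKO and both controls, whatever scaling is put between the libraries. Grin2a, absent from the count table, could not be placed among them. Per kilobase of exon, a scale on which genes can be compared, Grin2b reached 5.49 CPM per kb in Stim1 cKO, Grin3a 3.16, Grin2d 2.63 and Grin1 2.03. On that scale Grin2b held 64.8%, 8.25% and 5.82% of the level of the GluN2 subunits counted, and Grin2d 31.1%, 85.0% and 91.1%.

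AMPA receptors carry most fast excitation in the brain, and their GluA2 subunit, from Gria2, lowers calcium permeability. Gria2 had 4362, 113 and 82 counts, the most of any receptor gene in Stim1 cKO. The ratio was 31.4 to Stim1 HT (26.1 to 38.2) and 56.6 to Stim1 Ctrl (45.5 to 71.3), and edgeR put it 5.34 higher on the log2 scale, at an adjusted p of 0.0132 (4.51e-30 to 0.0215 over the alternatives). Gria1, for GluA1 of forebrain principal neurons, had 1160, 86 and 101 counts. These genes, with Gria4 at 418, 67 and 103 counts, were called by DESeq2 and not by edgeR. Gria3 differed from them, with 581, 223 and 346 counts and ratios of 2.12 to Stim1 HT (1.81 to 2.49) and 1.79 to Stim1 Ctrl (1.56 to 2.05). As a share of AMPA counts, Gria2 was at 66.9% (65.7 to 68.0), 23.1% (19.6 to 27.0) and 13.0% (10.6 to 15.8). Gria3 led in the controls, at 45.6% (41.2 to 50.03) and 54.7% (50.8 to 58.6), and held 8.91% in Stim1 cKO (8.24 to 9.63). By counts the share of Gria1 was close in all 3 libraries, at 17.8% (16.9 to 18.7), 17.6% (14.5 to 21.2) and 15.98% (13.3 to 19.0). Per kilobase of exon it was less close, at 32.1%, 26% and 22.8%.

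**Figure D2:**
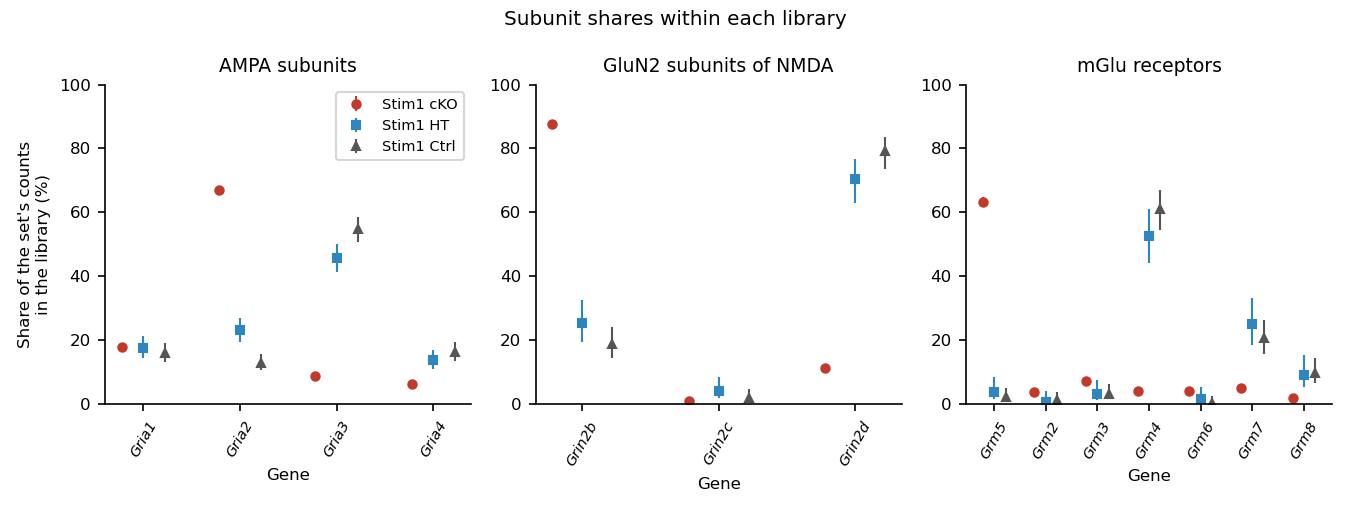
Share (%) of the counts of 3 subunit sets held by its genes in Stim1 cKO (circles), Stim1 HT (squares) and Stim1 Ctrl (triangles), with Wilson 95% intervals of counting error as bars. Among the genes counted, Gria2, Grin2b and Grm5 lead their sets in Stim1 cKO, and Gria3, Grin2d and Grm4 in both controls.

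Since many of these genes are known to be kept silent outside neurons, the 250 bases before the transcription start of the listed members were searched, after these values were seen, for the half-sites AGCACC and GGACAG of RE1, the element bound by the repressor REST. RefSeq (GRCm38.p6) promoters were found for 28 of the 42 genes, Grm5 and Grin2b not among them. On either strand, AGCACCNNGGACAG was in the promoter of Gria2 alone, against 14 of 27025 genes (0.0518%). With 7 bases between the half-sites, a spacing read from the sequence of Grm2 itself, AGCACCNNNNNNNGGACAG was in Grm2 and in 0.0148% of genes. The half-site AGCACC alone was in 5 of the 28 members and 15.1% of genes, and GGACAG in 11 members and 20.97% of genes. TAATCC, the core bound by photoreceptor homeodomain factors, was in Gabra2 and Gabrr2, and in 7.21% of genes. The 250 upstream bases of Gria2 (chr3:80802836-80803085, minus strand) and Grm2 (chr9:106656110-106656359, minus strand) are shown 5′ to 3′ because they hold these matches, with the match in capitals, which in Gria2 lies on the opposite strand, 157 to 170 bases before the start.
Gria2: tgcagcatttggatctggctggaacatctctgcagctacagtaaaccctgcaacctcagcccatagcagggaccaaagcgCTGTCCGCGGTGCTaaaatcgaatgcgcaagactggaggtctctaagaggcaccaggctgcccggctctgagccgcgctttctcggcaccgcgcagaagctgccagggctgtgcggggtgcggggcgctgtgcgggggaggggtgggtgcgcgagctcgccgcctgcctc
Grm2: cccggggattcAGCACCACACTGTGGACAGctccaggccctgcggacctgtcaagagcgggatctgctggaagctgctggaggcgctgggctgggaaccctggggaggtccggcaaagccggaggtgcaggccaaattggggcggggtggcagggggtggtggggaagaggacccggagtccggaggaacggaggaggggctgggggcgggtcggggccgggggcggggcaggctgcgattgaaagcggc
A match of letters is a description of the sequence, and no binding was measured here. The match in Grm2 was fixed by how its spacing was chosen, so the share of genes given with it shows nothing about Grm2.

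Kainate receptor genes were led by a gene that stood close to both controls. Grik5, for the high-affinity subunit GluK5, had 1132, 740 and 885 counts. The ratio was 1.25 to Stim1 HT (1.13 to 1.37) and 1.36 to Stim1 Ctrl (1.24 to 1.49), and edgeR's adjusted p was 0.314 (0.145 to 0.608 over the alternatives). Grik5 was the receptor gene with the most counts in both controls, and at 9.05, 7.27 and 6.66 CPM per kb it was the highest member per exon length there as well. It made up 56.6% of kainate counts (54.4 to 58.7), 80.3% (77.7 to 82.8) and 72.4% (69.8 to 74.8). Grik1, for GluK1 of sensory neurons, had 157, 45 and 115 counts, with ratios of 2.84 (2.03 to 4.05) and 1.45 (1.13 to 1.86). Of 5 kainate genes, 3 were over 2-fold above both controls, where 19.2% of all listed genes were. Neither tool called any of the 5, where edgeR called 0.0749% and DESeq2 6.3% of all genes tested higher. Grid1, for a delta subunit, passed 2-fold narrowly with 194, 70 and 103 counts, and was not called.

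Among GABA-A subunits, 12 of 17 genes were over 2-fold above both controls, where 19.2% of all listed genes were. None of the 17 was called by edgeR and 7 were called by DESeq2. Among all genes tested, these tools called 0.0749% and 6.3% higher. Gabrb1 had the largest ratios among the GABA-A genes, with 692, 17 and 12 counts. That was 33.1 times Stim1 HT (20.5 to 57.2) and 61.3 times Stim1 Ctrl (34.9 to 119), at an adjusted p of 0.0154 in edgeR (5.40e-14 to 0.0246 over the alternatives). Gabrb1 was called by DESeq2.

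The alpha subunits differed from one another. Gabra5, for the subunit of hippocampal extrasynaptic receptors, had 302, 17 and 17 counts, or 14.5 times Stim1 HT (8.88 to 25.2) and 18.9 times Stim1 Ctrl (11.6 to 32.9). It was called by DESeq2, whereas Gabra3 had 255, 91 and 320 counts, 2.28 times Stim1 HT (1.79 to 2.93) and 0.847 times Stim1 Ctrl (0.716 to 1.00). By counts Gabra3 was the leading alpha gene of the controls, at 51.4% of alpha counts for Stim1 HT (44.1 to 58.7) and 72.6% for Stim1 Ctrl (68.2 to 76.5), and at 23.3% in Stim1 cKO (20.9 to 25.9). Gabra2 was low throughout, with 29, 7 and 6 counts.

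Gabrg1, for a gamma subunit that is also found in glia, had 144, 4 and 9 counts and was called by DESeq2. Gabrd, for the delta subunit of extrasynaptic receptors, had 31, 14 and 6 counts, and its interval against Stim1 HT (0.931 to 3.67) included 1. Gabrp encodes the pi subunit, which is known from epithelia and glands rather than neurons. It had 1202, 258 and 148 counts, the most of any GABA-A gene in Stim1 cKO and Stim1 HT. Its ratios were 3.79 to Stim1 HT (3.31 to 4.35) and 8.63 to Stim1 Ctrl (7.27 to 10.3), and per exon length it was the highest of all members in Stim1 cKO, at 14.7 CPM per kb, followed by Gria2 at 11.6. The rho genes of retina split. Gabrr1 had 54, 2 and 4 counts, and Gabrr2 had 27, 10 and 53, so that Gabrr2 lay above Stim1 HT and at 0.542 of Stim1 Ctrl (0.328 to 0.876).

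**Figure D3:**
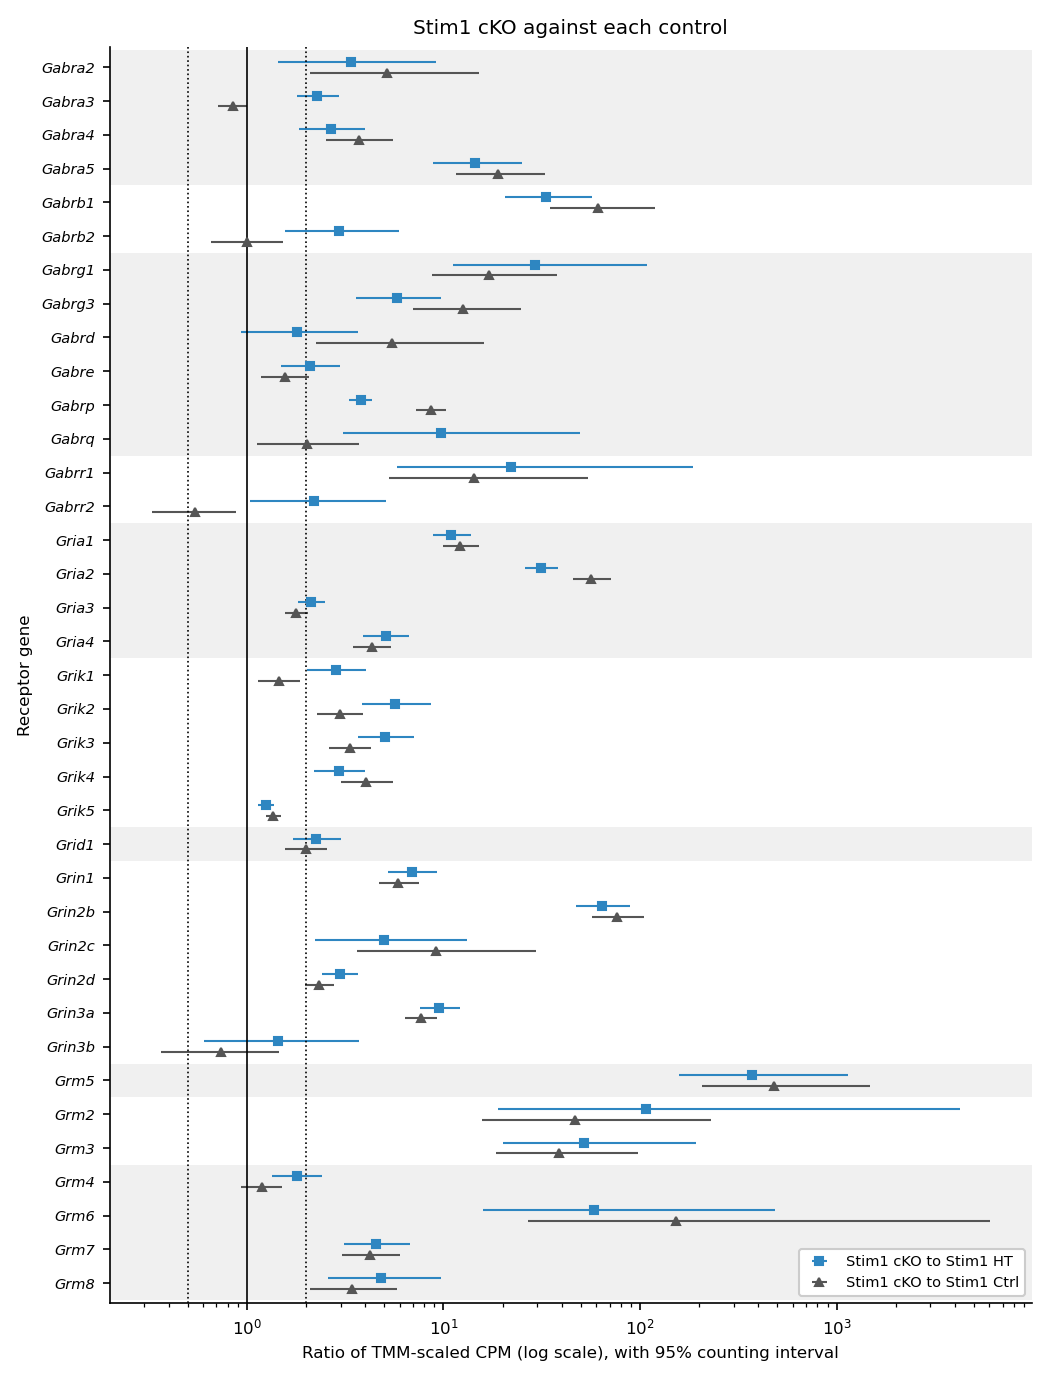
Ratio of TMM-scaled CPM in Stim1 cKO to Stim1 HT (squares) and to Stim1 Ctrl (triangles) for receptor genes, on a log scale, with exact 95% intervals of counting error, a solid line at 1 and dotted lines at 2-fold. In 36 of all 42 genes both intervals lay above 1, and the exceptions are Gabra3, Gabrb2, Gabrd, Gabrr2, Grin3b and Grm4.

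The naming rule takes in every gene called by either tool. The 12 members outside it, Grin2d and Grin3b among them, are therefore uncalled by construction, which is not a result. Their levels ran from 0.661 to 17.5 CPM in Stim1 cKO, against 0.152 to 5.89 CPM for Stim1 HT and 0.466 to 7.5 CPM for Stim1 Ctrl. Of these 12, 9 were over 2-fold above both controls, where 19.2% of all listed genes were. The adjusted p of the 12 in edgeR ran from 0.0552 to 0.971.

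Most GABA-A genes lie in clusters, and the clusters did not behave as units. In GENCODE M21 on GRCm38, 15 of the 17 listed genes fell in 5 clusters with gaps under 2 Mb, and Gabrd and Gabrp lay alone. On chromosome 5, Gabrg1, Gabra2, Gabra4 and Gabrb1 span 1398 kb, and all 4 were over 2-fold above both controls, at levels from 1.20 CPM for Gabra2 to 28.6 CPM for Gabrb1 in Stim1 cKO. On the X chromosome only Gabrq, at 36, 3 and 19 counts, passed, and Gabre and Gabra3 did not. On chromosome 4 the neighbours Gabrr1 and Gabrr2 were those that split above.

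By class, the summed level of the mGlu genes was 149, 6.65 and 8.67 CPM. NMDA genes summed to 215, 15.7 and 18.8 CPM, and AMPA genes to 269, 24.8 and 24.6 CPM. Kainate genes had 82.7, 46.8 and 47.5 CPM, a ratio of sums of 1.77 to Stim1 HT, the lowest of the classes, and of 1.74 to Stim1 Ctrl, where only the rho genes, at 1.51, were lower. The class median of the log2(CPM + 1) difference was 2.63 for mGlu, 2.61 for AMPA, 1.81 for NMDA and 1.47 for kainate genes. For GABA-A it was 1.998 in the gamma to theta subunits, 1.75 in beta, 1.21 in alpha and 0.75 in rho genes. The added 1 CPM shrinks this difference most where control levels are low. Median levels in Stim1 HT and Stim1 Ctrl were 0.254 and 0.233 CPM for mGlu genes, and 5.05 and 3.96 CPM for AMPA genes. The close medians of these classes depend on that addition, since their ratios of sums were 22.3 and 17.15 for mGlu and 10.85 and 10.97 for AMPA genes. Per kilobase of exon, kainate genes held 36.5% of the summed receptor level of Stim1 HT and 33.3% of that of Stim1 Ctrl, and 12.2% of that of Stim1 cKO. AMPA genes moved from 11.9% and 11.4% in the controls to 22.2% in Stim1 cKO, and mGlu genes from 4.66% and 5.73% to 17.6%. GABA-A genes as a whole kept about a constant place, at 34.0%, 36.4% and 37.4%.

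**Figure D4:**
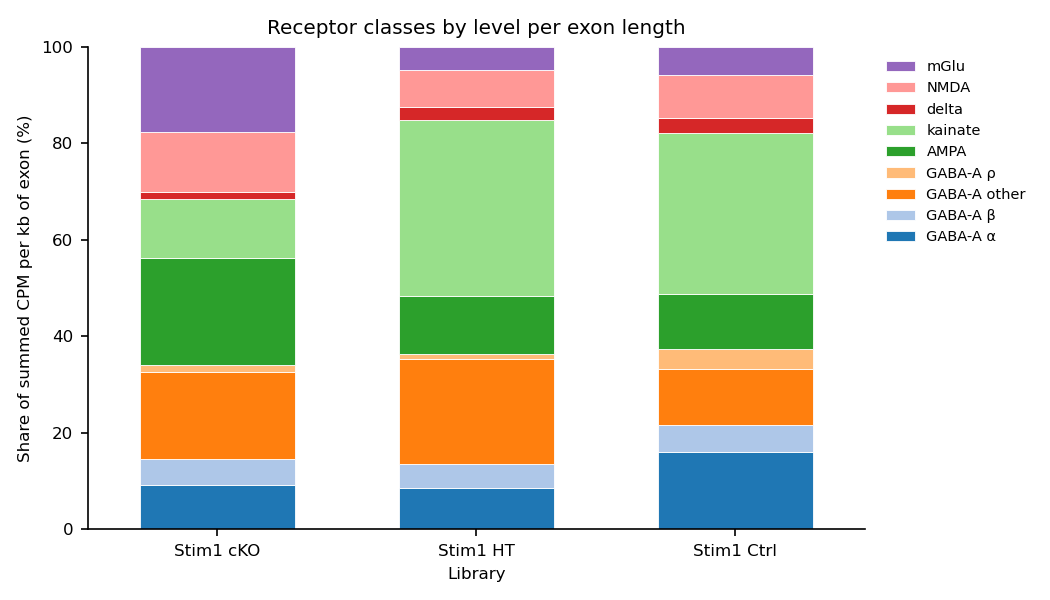
Share (%) of the summed TMM-scaled CPM per kb of exon taken by each receptor class in the 3 libraries, as stacked bars that start at 0. With GABA-A genes split by subunit type, kainate genes take the largest share in both controls (36.5% and 33.3%) and AMPA genes in Stim1 cKO (22.2%), while GABA-A genes together take 34.0%, 36.4% and 37.4%.

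Subunits known from particular parts of the nervous system were then set side by side. Of 9 listed subunits of forebrain cortex (among them Gabra5, Gabrd, Gria1, Gria2, Gria3, Grin1, Grin2b and Grm5), 7 were over 2-fold above both controls, both genes called by edgeR were among them, and their sum was 532, 29.5 and 29.2 CPM. They held 40.9% of the receptor level per kb in Stim1 cKO, against 14.4% and 13.2% in the controls. The 3 retinal subunits (Gabrr1, Gabrr2 and Grm6) summed to 9.25, 0.711 and 2.25 CPM, and 2 of them passed. Their median log2 difference was 1.52, and they held 2.34%, 1.31% and 4.22% of the level per kb, so that Stim1 cKO lay between the controls. The 4 subunits of peripheral sensory nerve (Gabra2 and Grik1 among them) summed to 45.9, 10.6 and 12.8 CPM, 3 of them passed, and their median log2 difference was 1.28, beside 2.94 for the cortical list. Their share of the level per kb stayed nearly level, at 6.46%, 6.997% and 7.84%. These medians add 1 CPM before the logarithm, which shrinks the difference of genes with few counts. Gabrr1, Grm6 and Gabrr2 had 1.52, 2.69 and -0.022 on that scale, and 4.04, 6.35 and -0.22 in edgeR. In edgeR the middle cortical gene was Gria1, at 3.53, so the order of the retinal and cortical lists depends on the scale. None of these subunits belongs to its tissue alone, since Gria1, Grin1 and Grm5 are found through much of the brain and several occur in retina.

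Some lists of markers of other cell types moved with these levels and others did not. Of all listed genes, 19.2% were over 2-fold above both controls. Of 12 pan-neuronal genes, 9 were over 2-fold above both controls, and they summed to 2129, 397 and 284 CPM, with Elavl3, the highest in Stim1 cKO, at 722, 28.1 and 5.87 CPM. Of 9 cortical genes counted, 6 passed. The sum was 874, 517 and 638 CPM, since Mef2c, the most abundant, was at 383, 351 and 448 CPM and 4 of the 9 were at 10 CPM or more in both controls. Neurod6 and Neurod2, transcription factors of cortical excitatory neurons, had 252, 2 and 1 counts and 549, 8 and 1 counts. All 10 photoreceptor genes counted passed, and they summed to 1087, 14.3 and 12.7 CPM. In the controls Rom1, with 217 and 261 counts, was most of that sum, and Gnat1, Prph2 and Nrl had 2 to 5 counts there. The 7 genes of retinal bipolar cells, which use Grm6, summed to 102, 44.1 and 62.8 CPM, 6 of them passed, and the most abundant was Prkca at 50.4, 33.2 and 56.4 CPM. Trpm1, the channel that acts behind mGlu6, had 304, 43 and 45 counts. For the other retinal neurons, 5 of 10 genes passed, the sums were 344, 383 and 297 CPM, and Calb1 led at 137, 304 and 182 CPM.

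The lists of peripheral nerve, sensory neurons and Schwann cells, are set beside all listed genes. Of those, 19.2% were over 2-fold above both controls and 8.21% over 2-fold below both, and the difference from these shares was not tested. Of 12 genes of sensory neurons only Scn9a, which is also expressed in other excitable cells, was over 2-fold above both controls, and 3 were over 2-fold below both. The sums were 127, 103 and 116 CPM, with Scn9a the most abundant in Stim1 cKO at 62.6 CPM, Calca in Stim1 HT at 33.8 CPM and Prph in Stim1 Ctrl at 34.7 CPM. Scn10a, a sodium channel of nociceptors, had 1, 8 and 162 counts. Calca, for the peptide CGRP, had 11, 665 and 91 counts. Of 12 Schwann cell genes none was over 2-fold above both controls and 2 were over 2-fold below both, and they summed to 1142, 2063 and 2816 CPM.

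Among glia, 4 of 8 genes of astrocytes and Mueller cells passed, with sums of 684, 660 and 688 CPM and Gja1, which is not particular to glia, leading at 370, 532 and 589 CPM. Of 7 oligodendrocyte genes 2 passed, with sums of 60.4, 57.2 and 35.0 CPM and Mag, the highest in Stim1 Ctrl, at 8.43, 16.6 and 24.9 CPM. Olig2, a transcription factor of that lineage, had 249, 116 and 3 counts. For cerebellar neurons 3 of 7 genes passed, the sums were 281, 420 and 236 CPM, and Calb1 led. Olfactory epithelium passed in 6 of 8 genes and stood high in both Cre+ libraries, with sums of 709, 323 and 66.9 CPM, and Omp, the marker of mature olfactory neurons and the highest in both Cre+ libraries, had 5359, 2065 and 16 counts. For the glands where Gabrp is known, 5 of 10 salivary and lacrimal genes were over 2-fold above both controls and 2 over 2-fold below both. Their sums were 312, 514 and 152 CPM, with Dcpp1, the highest in both Cre+ libraries, at 91.5, 326 and 8.08 CPM, and Aqp5, a water channel of gland acini, was at 77.3, 18.4 and 8.63 CPM. Of 10 skeletal muscle genes 8 were over 2-fold below both controls, with sums of 4357, 20136 and 29170 CPM and Acta1, the highest in Stim1 HT, at 973, 7398 and 9791 CPM. Of 8 ameloblast genes 3 were over 2-fold below both controls and 2 over 2-fold above, with a median log2 difference of 0.079. Their sums were 4479, 31552 and 23279 CPM, most of it Amelx and Ambn, whereas Odam, an enamel organ protein of maturation, was at 694, 196 and 75.1 CPM. Several lists share genes or hold genes that the controls express too. At 10 CPM or more in both controls were 7 pan-neuronal, 5 of the other retinal, 2 sensory, 10 Schwann, 10 muscle, 7 ameloblast, 4 astrocyte, 2 cerebellar and 2 gland genes, and 1 each of the photoreceptor, bipolar, oligodendrocyte and olfactory genes. Another list also held 1 cortical, 2 other retinal, 1 sensory, 2 astrocyte and 1 cerebellar gene. The part of any of these cell types in the receptor levels was not tested.

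**Figure D5:**
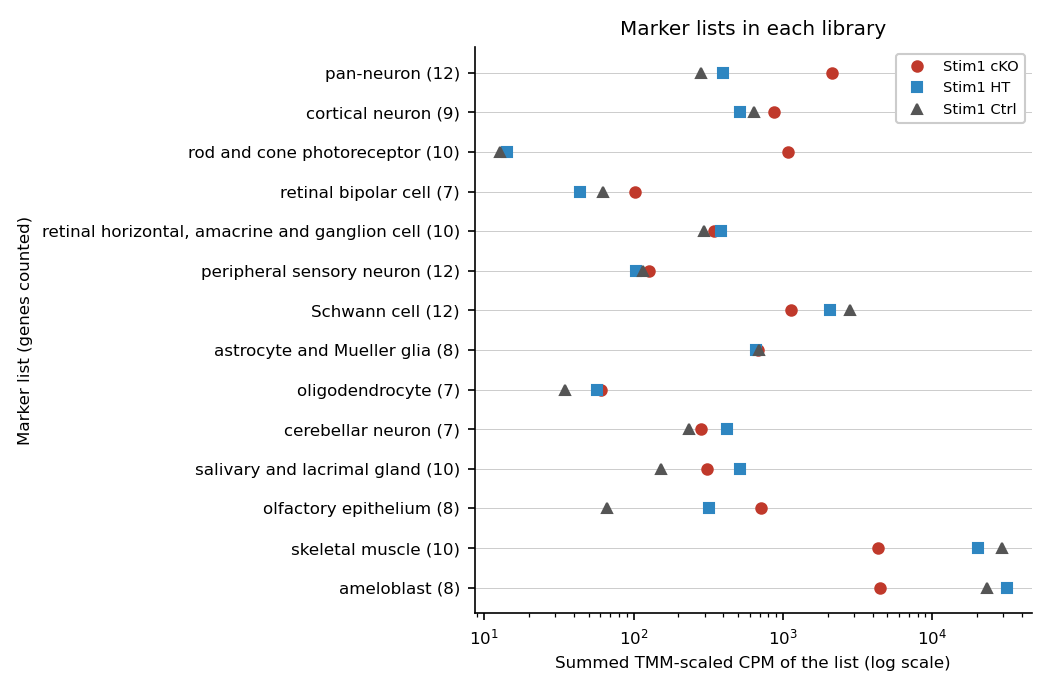
Summed TMM-scaled CPM (log scale) of each marker list in Stim1 cKO (circles), Stim1 HT (squares) and Stim1 Ctrl (triangles), with the number of genes counted in brackets. Photoreceptor genes show the widest gap (1087 CPM in Stim1 cKO against 14.3 and 12.7 CPM), and the sums of the Schwann cell, muscle and ameloblast lists are lower in Stim1 cKO, though 2 of the 8 ameloblast genes are over 2-fold higher.

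The genes that act with these receptors were given by the same 2-fold rule. Of all listed genes, 19.2% were over 2-fold above both controls and 8.21% over 2-fold below both, and the difference from these shares was not tested. Of 13 auxiliary subunits of AMPA and kainate receptors, which steer their trafficking and gating, 9 were above both controls and none below, and they summed to 327, 66.9 and 77.8 CPM. Cacng4 was the most abundant in Stim1 cKO, with 2890, 235 and 182 counts, and Cacng2, for stargazin, had 1920, 30 and 12 counts, 52.1 times Stim1 HT (36.4 to 77.4) and 170 times Stim1 Ctrl (97.1 to 330). Among 19 scaffolds of excitatory synapses 9 passed and 10 did not, and the sums were 894, 445 and 496 CPM, with Dlgap1 at 1142, 76 and 66 counts and the most abundant in the controls, Dlgap4, at 159, 105 and 114 CPM. Inhibitory postsynaptic proteins passed in 3 of 8 genes, with sums of 492, 545 and 528 CPM. Gphn, for the scaffold gephyrin, was nearly level at 27.1, 25.1 and 30.3 CPM, and Gabarap, which also serves autophagy, led at 207, 335 and 249 CPM.

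Genes of transmitter handling were divided likewise, beside the same 19.2% of all listed genes above both controls and 8.21% below both. Of 8 genes for GABA synthesis, packaging, uptake and breakdown, 5 were over 2-fold above both controls, among them Gad2 with 374, 12 and 2 counts and Slc32a1, for the vesicular GABA transporter, with 246, 4 and 2 counts. Slc6a13, for the transporter GAT2 that is known from meninges and epithelia, went the other way, with 66, 193 and 240 counts, or 0.278 of Stim1 HT (0.207 to 0.370) and 0.292 of Stim1 Ctrl (0.219 to 0.385). Abat, the degrading enzyme, was at 27.1, 18.2 and 23.1 CPM, and the list summed to 171, 54.0 and 52.6 CPM. For glutamate, 6 of 9 genes passed, with sums of 658, 321 and 329 CPM. Slc17a7, the vesicular transporter of cortical neurons and photoreceptors, had 1577, 108 and 72 counts, while Glul, for glutamine synthetase, led at 335, 218 and 237 CPM. All 4 listed GABA-B and glycine receptor genes passed and summed to 179, 50.8 and 49.7 CPM, with Gabbr1 at 104, 39.6 and 39.8 CPM and Gabbr2 at 49.4, 3.76 and 3.77 CPM. Of the chloride transporters that set the direction of GABA-A currents, Slc12a5, for the neuronal exporter KCC2, had 1218, 48 and 40 counts. Slc12a2, for the importer NKCC1 of epithelia and immature neurons, was at 216, 107 and 102 CPM, just past 2-fold, so that both genes together summed to 266, 110 and 103 CPM.

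Exons of 4 listed members overlap those of another listed gene in GENCODE M21, Gabra4 with Gabrb1 over 46 bases, Grin1 with Grin1os over 1307 bases and Grin3b with Tmem259 over 1059 bases, each on opposite strands. Whether strand was used in counting was not given in the sources used here, so reads from these stretches cannot be told apart.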

How the data were processed

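RNA from the enamel organs was made into libraries with a SMARTER kit per the labels, whereas the study's methods name a directional NEBNext kit. The authors deposited whole-number counts per gene symbol, and their processing notes name FastQC, STAR and DESeq2. The annotation and genome build behind the counts were not given in the sources used here. Every listed gene has at least 1 count in every library, and 25 rows carry a date as symbol. Scaling, filtering by filterByExpr and the quasi-likelihood test used edgeR 4.0.16 (TMM) in R 4.3.3, with DESeq2 1.42.0 as the alternative and Benjamini-Hochberg adjustment over all genes tested. Both were tested on simulated data, but no outcome of that is reported here, so it says nothing about the calls. Medians add 1 CPM before the logarithm. Ratios, intervals and shares used Python 3.11.15 with scipy 1.17.1, and positions and exon lengths (union of exons) came from GENCODE M21. Counts of genes past 2-fold and medians cover all listed genes with no filter.

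Members and lists were chosen with earlier results of these data known. Genes named in full were those called by either tool, the most counted gene of each class, any member over 2-fold below both controls (there was none) and the listed subunits of cortex, retina, peripheral sensory nerve and epithelium, and from each other list its most abundant gene and genes past 2-fold. Grin2d, Grin3b, Gabrb2, Gabrq, Gabre, Gphn and Olig2 fall outside this rule or were picked from it after their values were seen, as was the motif search. Some genes that the naming rule covers are not reported here.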

Additional observations from a re-analysis of the deposited data

How the results depend on the processing

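The number of members called was 2 with edgeR. It was 18 with DESeq2, 4 with upper-quartile factors, 1 with scaling by library size only, 13 with no filter on low counts, 1 when only genes averaging 50 counts or more were kept, and 19 at an adjusted p under 0.05. The cause was not tested. Grin2b lost its call with library size only and with the filter of 50 counts, and Grm5 kept its call under both; the values of single genes under that filter were added after seeing the data. Scaling by library size only moves the median of all genes by 0.16 on the log2 scale, against 0.071 for upper-quartile factors. The median of 1.64 over the receptor genes became 1.74 with upper-quartile factors, 1.85 with library size only and 2.13 with 0.1 CPM added in place of 1, and 1.56 to 1.78 without either control. The counts of members past 2-fold stayed within 1.5 times the reported ones, at 26 to 34 of 42 higher and 0 lower over the other scalings, filter, added CPM and a 3-fold limit, and 33 to 38 without either control.

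The direction turned for 4 genes. Gabrr2 had a log2 fold change of 0.065 with library size only and, without Stim1 HT and without Stim1 Ctrl, -0.88 and 1.14. Grin3b had 0.090 with upper-quartile factors, 0.22 with library size only and, without either control in the same order, -0.44 and 0.53. Gabra3 had -0.24 without Stim1 HT and 1.19 without Stim1 Ctrl, and Gabrb2 had -0.0010 and 1.56. Leaving out a control leaves no residual degrees of freedom, so these are values with no test, and the number of genes called then has no value. Depth limits members at or under 3 counts, 4 in Stim1 HT and 3 in Stim1 Ctrl, whose ratios have wide intervals.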
